A study of Mus musculus with 6 samples.

Results

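The genes described here encode the proteins of the cytosolic ribosome, and they were followed in the tibialis anterior, the shin muscle that lifts the foot, of adult wild-type (WT) and Dock3 knockout (Dock3 KO) mice. A gene was a member if GENCODE M21 types it as protein-coding and its symbol is Rpl or Rps followed by a digit, or is Rplp0, Rplp1, Rplp2 or Rpsa. Kinases named Rps6k, paralogs whose Rpl symbol ends in l, and symbols with -ps were left out. The rule found 80 of the 54393 genes in the table, of which 46 encode proteins of the large subunit and 31 proteins of the small subunit. The other 3 are Rps27l, a paralog of Rps27, Rps27rt, a retrotransposed copy of Rps27, and Rps19bp1, which encodes a protein that binds the ribosomal protein Rps19 and is not itself ribosomal. The 80 genes lie on 19 chromosomes, 4 of them on the X chromosome.

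The cytosolic ribosome translates messenger RNA. Its small subunit reads the codons, and its large subunit joins the amino acids. Nearly every ribosomal protein is present as a single copy per ribosome, so cells make the proteins in matched amounts. Most of their messenger RNAs begin with a run of pyrimidines, the TOP motif (terminal oligopyrimidine), through which mTORC1, a kinase complex that senses nutrients and growth signals, controls how well they are translated. In muscle, making ribosomes is part of how fibres add protein and grow. Ribosomal protein messenger RNAs are short, abundant and spliced, and mammalian genomes hold many processed pseudogenes of them, which are intron-less copies inserted elsewhere in the genome.

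There were n = 3 WT muscles (replicates 1, 3 and 4) and n = 3 Dock3 KO muscles (replicates 1, 2 and 3), all from adult mice. Dock3 encodes an activator of the small GTPase Rac. The WT titles carry C57 and the other titles carry KO, and how the allele was made, its strain background and the sex of the mice are not given in the labels. No sample label says whether 2 muscles came from the same animal, so p-values measure the spread between muscles. Values are the authors' normalized counts, and "per kb" below means a normalized count divided by transcript length in kilobases.

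Sample totals ran from 23520223 to 33393950 normalized counts, with 23860 to 25185 genes above 0. The number of reads behind a value was not recovered from the table, so no counting error is given. Dock3 stood at 169, 161 and 118 normalized counts in WT against 22.4, 1.78 and 1.54 in Dock3 KO. Genes of skeletal muscle were abundant in all samples: 14 marker genes summed to between 2216200 and 2700820 normalized counts in WT and to between 2395460 and 2790530 in Dock3 KO, and 0 of the 14 passed the test (limma; 0 also had an unadjusted p under 0.05). A pair of genes, Gm42418 and Lars2, took 3.00% to 3.51% of the total in WT but 17.9% and 20.3% in Dock3 KO replicates 1 and 2, against 3.64% in replicate 3.

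Differences between genotypes were small for most ribosomal protein genes, with 75 of 80 log2 differences within ±0.5. All 80 passed the filter on low values (at least 10 normalized counts as a mean of the 6 samples). Of the 80, only Rpl29 was past the threshold, set at 0.05 for a limma p adjusted over 16031 genes by the Benjamini-Hochberg method. It was higher in Dock3 KO, and 0 members were lower. Among all genes tested, 1.03% passed, 0.443% higher and 0.586% lower, so that 1 of 80 is near the background. The log2 difference (Dock3 KO minus WT, on log2 of the normalized count plus 1) was above 0 for 29 members and below 0 for 51. Its median was -0.03, with quartiles of -0.19 and 0.07, against a median of -0.01 over all genes tested.

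The precision allows a bound on most members. The 95% confidence interval lay inside ±1 for 75 of 80 members, and the median half-width was 0.37 log2 units. The difference between genotype means was smaller than the spread within groups (pooled SD) for 62 members. Both subunits gave like values, with a median of -0.03 and 18 of 46 genes above 0 for the large subunit and a median of -0.02 and 9 of 31 above 0 for the small subunit. Without Dock3 KO replicates 1 and 2, which carry the high Gm42418 and Lars2 share, Rpl29 again was the single member past the threshold, at a log2 difference of 1.84. That fit has a lone Dock3 KO muscle, which is assumed to vary like the WT muscles.

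**Figure D1:**
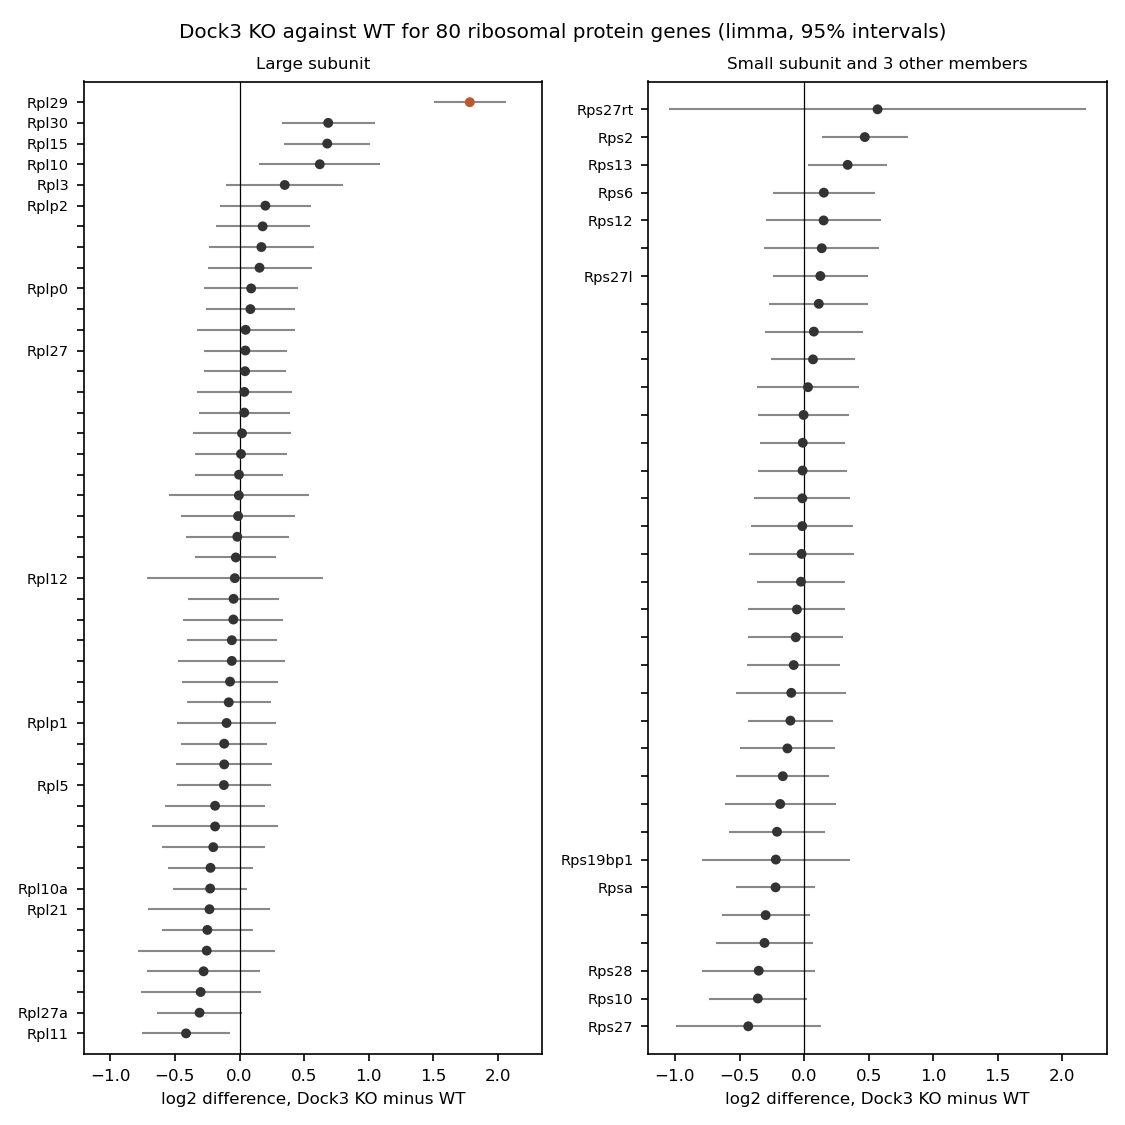
Log2 difference (Dock3 KO minus WT) of each of the 80 members on the horizontal axis, with large-subunit genes on the left and small-subunit and other genes on the right, ordered by difference with labels for most of the genes the text names. Points are limma estimates, lines are 95% confidence intervals, and the orange point is the gene past the threshold, Rpl29 at 1.78, while 75 of the 80 estimates lie within ±0.5.

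Rpl29, a small basic protein on the outer face of the large subunit, was the member that stood apart. The gene (ENSMUSG00000048758) lies on chromosome 9 (106429454 to 106431568, plus strand, GRCm38 in GENCODE M21), and overlaps no other annotated gene. It stood at 1015, 987 and 939 normalized counts in WT against 3668, 2991 and 3501 in Dock3 KO. Every Dock3 KO muscle lay far above every WT muscle, and the spread within either group was small beside the gap. The means were 980.1 ± 38.4 and 3387 ± 353 (SD, n = 3 each). The log2 difference was 1.78 (standard error 0.126, limma adjusted p 8.04e-05).

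Rpl29 has a processed pseudogene, Gm8210, on chromosome 1 (43189156 to 43189638, plus strand), whose values went the other way. Gm8210 stood at 1322, 1783 and 1869.8 normalized counts in WT but at 0 in each of the 3 Dock3 KO muscles (limma adjusted p 1.67e-07). The coding sequence of Rpl29 holds 483 bases, and Gm8210 differs from it at 3 of them, for an identity of 99.4%. The tokens C72A, C300T and T423C give the base of Rpl29, its position counted from 1 at the A of the start codon, and the base of Gm8210. The windows of 51 bases around C72A and T423C are shown because the sequences of gene and copy part there. The capital marks the base that differs.
Rpl29 around C72A, chr9:106430317-106430367, plus strand: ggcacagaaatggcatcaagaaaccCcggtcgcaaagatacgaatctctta
Gm8210 around C72A, chr1:43189202-43189252, plus strand: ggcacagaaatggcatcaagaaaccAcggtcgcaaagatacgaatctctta
Rpl29 around T423C, chr9:106431364-106431414, plus strand: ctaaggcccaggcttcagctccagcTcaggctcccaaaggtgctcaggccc
Gm8210 around T423C, chr1:43189553-43189603, plus strand: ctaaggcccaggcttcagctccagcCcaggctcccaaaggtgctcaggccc

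Because a gene and such a copy can share reads, each member was also tested as the sum of its own value and those of its near-identical copies. A copy was an annotated pseudogene, or a gene with a -ps symbol, whose aligned bases were at least 95% identical and covered at least 50% of the shorter transcript. Summed in this way, Rpl29 stood at 2357, 2800.3 and 2831 normalized counts in WT against 3708, 3011 and 3523 in Dock3 KO. The groups still did not overlap, but the gap between 2831 and 3011 was small beside the spread. The means were 2662 ± 265 and 3414 ± 361 (SD, n = 3 each), and the log2 difference fell from 1.78 to 0.36 (95% confidence interval 0.06 to 0.66, limma adjusted p 0.361). Rpl29 itself held 36.8% of the sum in WT and 99.2% in Dock3 KO. How reads were divided between gene and copy was not tested, and since the labels give no strain for the Dock3 KO mice, genotype and any difference in strain background cannot be told apart in the values of gene or copy.

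With copies summed, 0 of 80 members passed (limma with Benjamini-Hochberg adjustment over 15978 rows), against 0.989% of all rows (0.438% higher and 0.551% lower). The smallest adjusted p was the 0.361 of Rpl29. At an unadjusted p under 0.05 there was 1 member, against 10.4% of all rows, and before summing there were 7, against 10.5% of all genes. The median log2 difference was -0.06, and the interval lay inside ±1 for 79 of 80 members. The medians were -0.06 for the large and -0.05 for the small subunit.

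Copies of ribosomal protein genes were many, but few carried much signal. There were 574 copies of 75 members, and Rpl21 had the most, 59. Rps27, Rpl41, Rps27l and Rps19bp1 were among the 5 members without a copy by this rule. Of the 574 copies, 506 were above 0 in at least 1 sample and 53, of 40 members, had a mean of at least 10 normalized counts. Of the 53, 19 matched their gene at 100% over the aligned bases. The member held over 99% of the sum of gene and copies for 44 members, under 90% for 27 and under 50% for 8.

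Of these 53 copies, 6 passed the test, all 6 lower in Dock3 KO (limma with Benjamini-Hochberg adjustment), and 0 were higher, against 0.586% lower and 0.443% higher among all genes tested. They were Gm8210, Gm12191, Rpl3-ps1, Rpl15-ps2, Rps2-ps10 and Gm10020, copies of 5 members. Summing the copies moved the log2 difference of 9 members by over 0.2. It fell for Rpl29, Rpl3, Rpl10, Rpl30, Rps2, Rpl15, Rps13 and Rpl27 and rose for Rpl11. Rpl3, Rps2, Rps13, Rpl27 and other genes below that are neither among the highest nor the lowest were named after their values were seen.

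**Figure D2:**
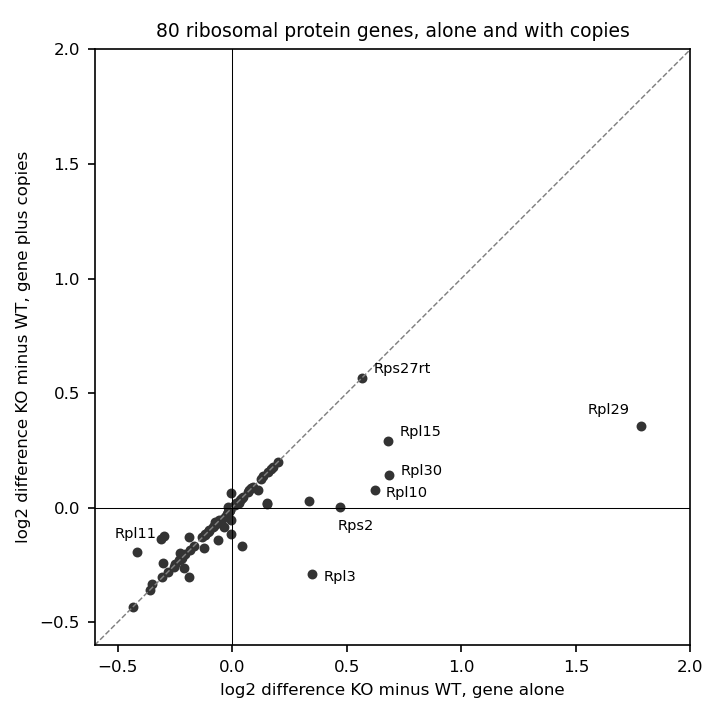
Log2 difference (Dock3 KO minus WT) of each member alone on the horizontal axis and of the member plus its near-identical copies on the vertical axis, with equality as the dashed line. Most points lie on the line, while Rpl29 falls from 1.78 to 0.36 and Rpl3 from 0.35 to -0.29.

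Among large-subunit proteins, Rpl15 and Rpl30 had the next highest differences. Rpl15, which lies deep in the large subunit's RNA core, is on chromosome 14 (18267823 to 18271391, minus strand), and overlaps Nkiras1 on the other strand. It stood at 2442, 2876 and 3306 normalized counts in WT against 5232, 4229 and 4306 in Dock3 KO, with no overlap. The log2 difference was 0.68 (standard error 0.149, limma adjusted p 0.0803), short of the threshold. Its copies Gm10020 (455, 569 and 639 in WT, 12.6, 0 and 6.98 in Dock3 KO) and Rpl15-ps2 (261, 387 and 395 in WT, 4.19, 1.56 and 6.16 in Dock3 KO) were lower in every Dock3 KO sample. With copies, Rpl15 stood at 3808 ± 598 in WT against 4647 ± 552 in Dock3 KO (SD, n = 3 each), for a log2 difference of 0.29 (95% confidence interval -0.04 to 0.63, limma adjusted p 0.556).

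Rpl30, a protein at the contact between the subunits, lies on chromosome 15 (34440505 to 34443640, minus strand), and overlaps a snoRNA and, on the other strand, D730044K07Rik, whose type is unsettled in GENCODE. WT muscles stood at 1492, 1805 and 1767 normalized counts against 3008, 2160.4 and 3055 in Dock3 KO. The groups did not overlap, with Dock3 KO replicate 2 nearest to WT, and the log2 difference was 0.69 (standard error 0.161, limma adjusted p 0.108). Without Dock3 KO replicate 2 it passed, at a log2 difference of 0.85 (limma adjusted p 0.0384). Its copy Gm12191 (chromosome 11, 49678710 to 49679057, minus strand) stood at 725, 714 and 832 in WT but at 0 in every Dock3 KO muscle. With copies, Rpl30 stood at 2462 ± 199.7 and 2748 ± 507 (SD, n = 3 each), for a log2 difference of 0.14 (95% confidence interval -0.21 to 0.49, limma adjusted p 0.834).

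Rpl3, which reaches toward the site where peptide bonds form, also had a copy with no value in Dock3 KO. It lies on chromosome 15 (80077791 to 80091868, minus strand), and overlaps 5 other genes, 4 of them short RNAs on the same strand. WT muscles stood at 806, 1098 and 1394 normalized counts against 1620.4, 1175 and 1343 in Dock3 KO, and these ranges overlap (log2 difference 0.35, limma adjusted p 0.621). Rpl3-ps1 on the X chromosome (13202571 to 13203780, plus strand) stood at 515, 648 and 626 in WT but at 0 in every Dock3 KO muscle. With copies, the log2 difference was -0.29 (95% confidence interval -0.69 to 0.11, limma adjusted p 0.650). The direction of Rpl3 thus depends on whether its copies are counted, and neither value passed.

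These copies also differ from their genes at few bases. Gm12191 differs from Rpl30 at 1 of 348 coding bases, Rpl3-ps1 from Rpl3 at 2 of 1209 aligned coding bases, and Gm10020 from Rpl15 at 2 of 612. A window of 51 coding bases is shown for each pair, since these are the few places where gene and copy part. Capitals mark G96A for Rpl30 and Gm12191, C57A for Rpl3 and Rpl3-ps1, and C202A for Rpl15 and Gm10020, with the gene's base first and positions counted from the A of its start codon.
Rpl30, chr15:34442681-34442731, minus strand: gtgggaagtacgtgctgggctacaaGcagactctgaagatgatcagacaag
Gm12191, chr11:49678937-49678987, minus strand: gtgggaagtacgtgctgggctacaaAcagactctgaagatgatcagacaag
Rpl3, chr15:80082504-80082554, minus strand: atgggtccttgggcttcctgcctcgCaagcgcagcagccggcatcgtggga
Rpl3-ps1, chrX:13202603-13202653, plus strand: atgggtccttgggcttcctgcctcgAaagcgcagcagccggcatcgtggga
Rpl15, chr14:18269989-18270039, minus strand: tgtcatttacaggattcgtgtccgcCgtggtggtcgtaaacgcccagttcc
Gm10020, chr15:52478002-52478052, minus strand: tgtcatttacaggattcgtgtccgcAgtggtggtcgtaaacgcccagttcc

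**Figure D3:**
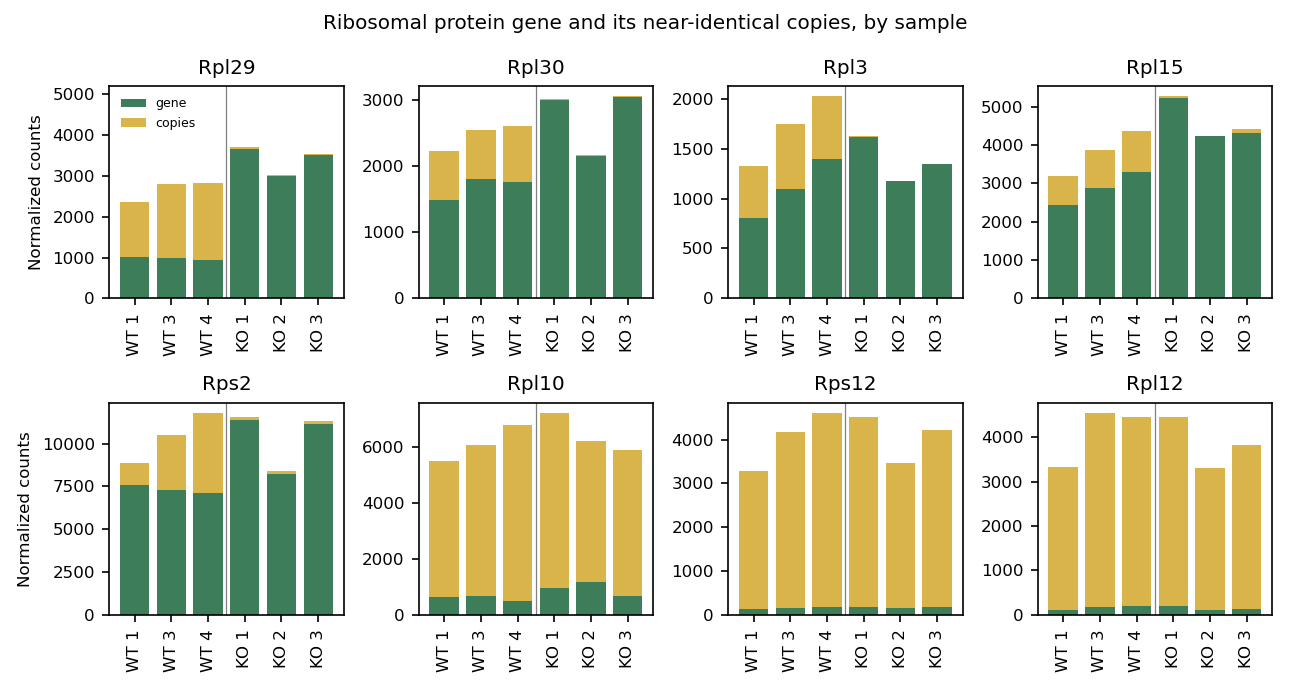
Normalized counts (vertical axes) of 8 ribosomal protein genes, in green, stacked with the sum of their near-identical copies, in yellow, for WT replicates 1, 3 and 4 and Dock3 KO replicates 1, 2 and 3. For Rpl29, Gm8210 takes 1322 to 1869.8 normalized counts in WT and 0 in Dock3 KO, so that the stacked heights differ less between genotypes than the gene alone.

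Rpl10, a protein of the central large subunit that is added late in assembly, was mostly listed under another gene. Rpl10 (X chromosome, 74270812 to 74273135, plus strand) stood at 644, 667 and 485 normalized counts in WT against 961, 1162 and 681 in Dock3 KO (log2 difference 0.62, standard error 0.209, limma adjusted p 0.297). These groups do not overlap, but by the narrow gap between 667 and 681. Rpl10-ps3 on chromosome 9 (50344201 to 50344968, minus strand), typed as protein-coding in GENCODE M21, matches Rpl10 at 100% over 737 aligned bases. That gene stood at 4804, 5360.0 and 6242 in WT against 6225, 4999 and 5129.9 in Dock3 KO. Rpl10 held 9.82% of its sum in WT and 14.5% in Dock3 KO, and with copies the log2 difference was 0.08 (95% confidence interval -0.23 to 0.38, limma adjusted p 0.916).

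Rpl5 and Rpl11, which bind 5S ribosomal RNA and, outside the ribosome, the p53 regulator Mdm2, were both below 0 without passing. Rpl11 had the second lowest difference of all members. Rpl11 stood at 1909, 2355 and 2444 normalized counts in WT against 1971, 1550.3 and 1518 in Dock3 KO (log2 difference -0.41, 95% confidence interval -0.75 to -0.08, limma adjusted p 0.347). Its copy Gm10288 stood at 122, 340.1 and 96.6 in WT against 761, 406 and 228 in Dock3 KO, and with copies the log2 difference was -0.19 (limma adjusted p 0.789). Rpl5 itself stood at only 439 ± 54.6 and 404 ± 52.0 (SD, n = 3 each), which is 8.05% and 8.36% of its sum, and the remainder lay almost wholly on Gm15500, which matches it at 100% over 1018 aligned bases. With all its copies, Rpl5 stood at 5457 ± 893 and 4829.7 ± 822 (SD, n = 3 each), for a log2 difference of -0.18 (limma adjusted p 0.790).

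The stalk proteins Rplp0, Rplp1 and Rplp2, which recruit the factors that drive elongation, had few values on copies. Rplp0 stood at 9745, 11415 and 12812 normalized counts in WT against 13662, 9856 and 12759 in Dock3 KO (log2 difference 0.09). Rplp1 stood at 8271 ± 1275 and 7752 ± 1485 and Rplp2 at 1976 ± 188 and 2290.2 ± 417 (SD, n = 3 each), with log2 differences of -0.10 and 0.20. In all 3 genes the groups overlapped, and limma adjusted p-values were 0.744 to 0.915.

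Among small-subunit proteins, Rps2 had the highest difference. Rps2, which lies near the messenger RNA entry channel, is on chromosome 17 (24718116 to 24721929, plus strand), and overlaps 3 non-coding genes. Rps2 stood at 7565, 7279 and 7118 normalized counts in WT against 11363, 8234 and 11132 in Dock3 KO. The groups did not overlap, and the log2 difference was 0.47 (standard error 0.148, limma adjusted p 0.254). Its copy Rps2-ps10 stood at 1177, 3016 and 4397 in WT against 71.5, 97.2 and 69.7 in Dock3 KO (limma adjusted p 0.000190). With copies, the means were 10395 ± 1481 and 10439 ± 1750.1 (SD, n = 3 each), for a log2 difference of 0.00 (95% confidence interval -0.37 to 0.37).

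Rps13, a core protein of the small subunit, stood at 1956, 2093 and 1896 normalized counts in WT against 2922, 2469 and 2169 in Dock3 KO (log2 difference 0.34, limma adjusted p 0.416). With copies the log2 difference was 0.03. Its copy Rps13-ps1 was uneven within Dock3 KO, at 416, 0 and 1017, against 936, 928 and 1163 in WT. Another copy, Rps13-ps2, went the other way, at 0 in every WT muscle against 135, 95.3 and 0 in Dock3 KO (limma adjusted p 0.342).

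The 3 lowest small-subunit genes did not pass either. Rps27, a zinc finger protein, stood at 2279.8, 1495 and 1646 normalized counts in WT against 1725, 1514 and 873 in Dock3 KO (log2 difference -0.43, limma adjusted p 0.618). Without Dock3 KO replicate 3 the log2 difference was -0.14, and with log2 Gm42418 as a covariate it was -1.12. Rps27rt, which matches Rps27 at 100% over 307 aligned bases, stood at 181, 1659 and 1794 in WT against 1420.3, 808 and 1535 in Dock3 KO. On the log2 scale its standard error of 0.724 was the largest of any member. The sum of both was 3018 ± 504 in WT against 2625 ± 452 in Dock3 KO (SD, n = 3 each), with overlapping groups. Rps10, at the beak of the small subunit, had a log2 difference of -0.36 (2358 ± 415 and 1838 ± 295, SD, n = 3 each, limma adjusted p 0.505). Rps28, near the messenger RNA exit, had a log2 difference of -0.35 (1369 ± 338 and 1062 ± 179, SD, n = 3 each, limma adjusted p 0.606). Over the fits that left out single muscles, the log2 difference ran from -0.63 to -0.14 for Rps27, from -0.47 to -0.22 for Rps10 and from -0.53 to -0.17 for Rps28.

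Rps6, the small-subunit protein that S6 kinase phosphorylates downstream of mTORC1, stood at 2546, 2279 and 3144 normalized counts in WT against 3506, 3070.3 and 2327 in Dock3 KO. These ranges overlap, with a log2 difference of 0.15 alone and 0.02 with copies (limma adjusted p 0.849 and 0.986). Rpsa, which is also known as a laminin receptor, stood at 7744 ± 805 and 6645 ± 722 (SD, n = 3 each), for a log2 difference of -0.22 (limma adjusted p 0.647).

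In total, the groups did not overlap for 8 of 80 members (10%), against 16.2% of all genes tested. Dock3 KO was higher for Rpl29, Rpl15, Rpl30, Rps2, Rpl10 and Rps13, against 7.60% of all genes, and lower for Rpl27a and Rpl10a, against 8.65%. With copies summed, 2 members did not overlap, against 16.2% of rows. These were Rpl29, higher (7.59% of rows were), and Rpl27, lower (8.61% of rows were) at 2268, 2439 and 2368 against 2192, 2106 and 1999 (log2 difference -0.17, limma adjusted p 0.688).

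Levels differed far more between members than between genotypes. Per kb of transcript, the median member stood at 4049.8 normalized counts in WT, with quartiles of 2694 and 4927. Rplp1, the highest, stood at 16575 per kb in WT and 15535 in Dock3 KO, and Rps2 was also among the 3 highest, at 7335 and 10263.

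The lowest per kb were Rps19bp1 at 109 in WT, Rpl12 at 128 and Rpl5 at 215. For Rpl12 and Rpl5 most of the family's value stood on copies. Rpl12, at the base of the stalk, stood at 159 ± 51.4 and 153 ± 48.1 normalized counts (SD, n = 3 each) and held 3.85% and 3.96% of its sum. Gm10275, which matches it at 100% over 634 aligned bases, held nearly all of the rest at 3947 ± 626 and 3698 ± 525. Rps12 stood in the same position, with 3.93% and 4.28% of its sum, beside Rps12-ps3, which matches it at 100% over 494 bases. With copies, levels per kb in WT were 3318 for Rpl12, 2668 for Rpl5 and 8145 for Rps12, and the lowest ribosomal protein was Rpl3 at 1261. Annotated transcript lengths set these values, and those used for Rpl12 and Rpl5 are long, at 1242 and 2045 bases.

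Rpl3 has a paralog, Rpl3l, known to be made in heart and skeletal muscle, where it can take the place of Rpl3. Rpl3l stood at 3244 normalized counts per kb in WT and 3529.7 in Dock3 KO, against 814 and 1021 for Rpl3. It stood at 4101, 4412 and 4869 normalized counts in WT against 5143, 4457 and 4961 in Dock3 KO (log2 difference 0.12, 95% confidence interval -0.16 to 0.40, limma adjusted p 0.813). Rpl3l was above Rpl3 in all 6 samples, also with the copies of Rpl3 added.

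Fau and Rack1 belong to the ribosome under symbols the rule does not reach, and neither differed beyond its spread. Fau, a fusion that yields a small-subunit protein, stood at 2097 ± 299 and 2066 ± 260 (log2 difference -0.02). Rack1, a scaffold on the small subunit, stood at 6461 ± 818 and 6261 ± 650 (log2 difference -0.04; SD, n = 3 each). Of 8 paralogs, 6 were tested and 0 passed (limma; 1, Rps4l, had an unadjusted p under 0.05). Rps4l stood at 19.8, 29.0 and 24.3 in WT against 58.4, 34.5 and 47.0 in Dock3 KO, and these did not overlap (log2 difference 0.89, limma adjusted p 0.391).

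The members also moved together between muscles of the same genotype. Each member's log2 value was set against its own mean over the 6 samples. The median over the 80 members was -0.20, 0.06 and 0.22 in WT replicates 1, 3 and 4 and 0.23, -0.15 and -0.11 in Dock3 KO replicates 1, 2 and 3, while the same median over all genes tested lay between -0.00313 and 0.0147. WT replicate 1 was the lowest WT sample for 71 of 80 members, and Dock3 KO replicate 1 was the highest Dock3 KO sample for 75. The low and the high muscles thus fell in both genotypes. With copies the medians were -0.20, 0.08 and 0.22 in WT and 0.21, -0.20 and -0.10 in Dock3 KO. The same members and the same 6 libraries enter all these medians, so they are a description without a test.

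**Figure D4:**
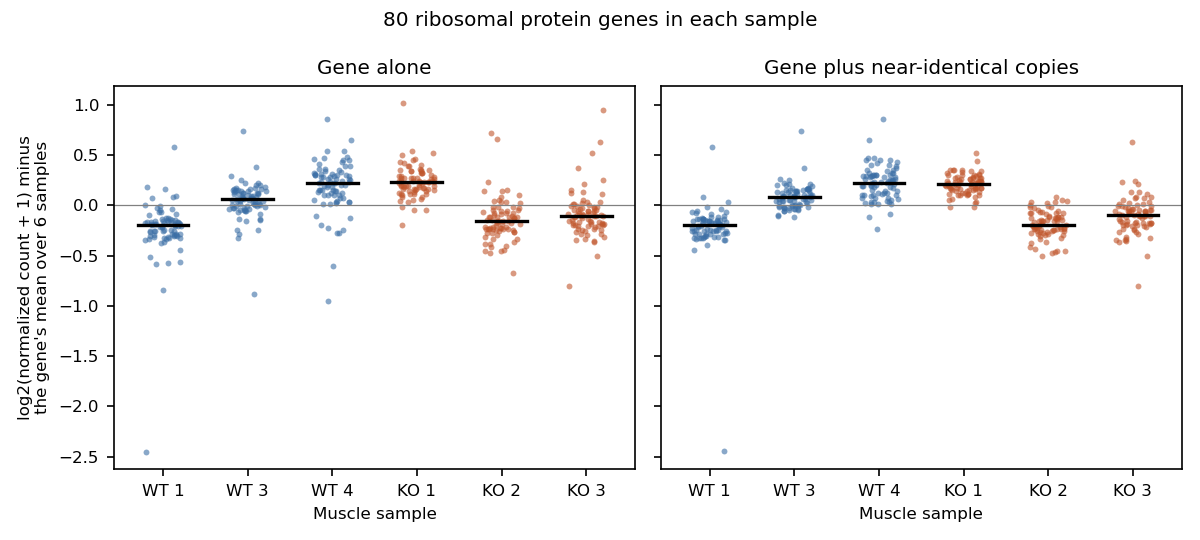
Log2(normalized count plus 1) of each member minus that gene's mean over the 6 muscles, by sample, for the gene alone (left) and with near-identical copies (right); points are the 80 members and bars their medians. WT replicate 1 and Dock3 KO replicates 2 and 3 sit below 0 and WT replicate 4 and Dock3 KO replicate 1 above it, so both genotypes span the same range.

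Leaving out single muscles moved the group median accordingly. The median log2 difference of the 80 members was -0.16 without replicate 1 of WT and 0.05 without replicate 4. Leaving out Dock3 KO replicate 1 gave -0.17 and leaving out replicate 2 gave 0.04, so its sign rests on single muscles. As a share of all normalized counts, the members made up 0.817%, 1.04% and 1.03% in WT and 0.834%, 0.646% and 0.901% in Dock3 KO. The means were 0.961% ± 0.125 and 0.794% ± 0.133 (SD, n = 3 each), and the groups overlapped. Without Gm42418 and Lars2 in the totals, the shares were 0.994% ± 0.128 and 0.920% ± 0.104 (SD, n = 3 each), so that the gap of -0.17 percentage points became -0.07.

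Other genes of ribosome production and translation were examined from lists. Among 32 translation factors, 50 genes of RNA polymerase I and ribosome assembly, 29 genes of mTORC1 and TOP control and 78 mitochondrial ribosomal proteins, 0 genes passed in either direction (limma with Benjamini-Hochberg adjustment), against 1.03% of all genes. At an unadjusted p under 0.05 there were 3, 3, 1 and 4 genes in the same order. Their median log2 differences were -0.03, -0.05, -0.06 and -0.01, with 14, 15, 13 and 36 genes above 0. Examples chosen for their roles after the values were seen also stayed within their spread. Eef2, the translocation factor, stood at 22235 ± 3232 and 21412 ± 2797 normalized counts, Mtor, the kinase of mTORC1, at 1051 ± 167 and 993 ± 96.1, and Larp1, which binds TOP messenger RNAs, at 1853 ± 191 and 1926 ± 252 (SD, n = 3 each).

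**Figure D5:**
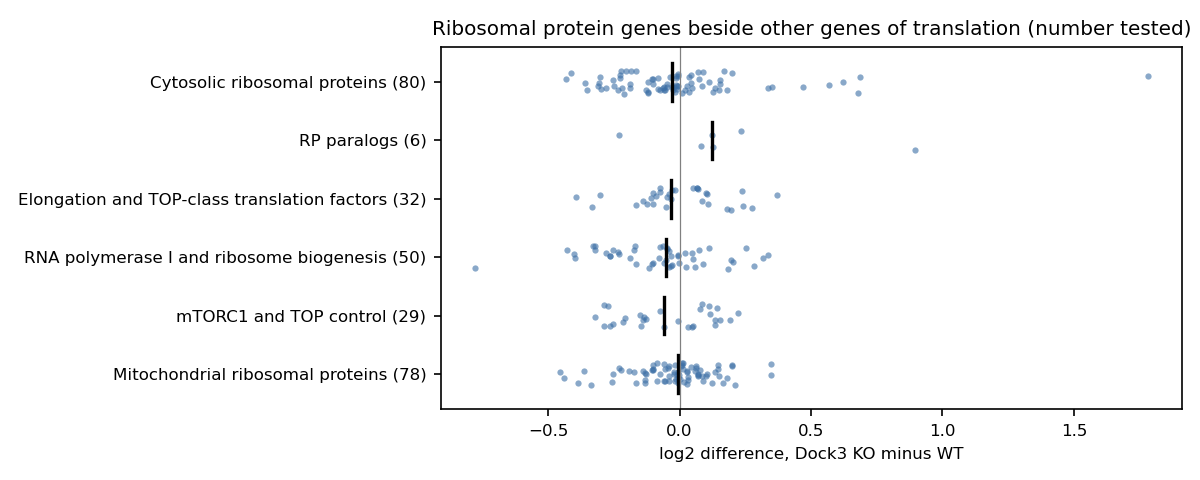
Log2 difference (Dock3 KO minus WT) of each tested gene, as points, in the cytosolic ribosomal proteins and 5 lists of related genes, with the number tested in brackets and medians as bars. Medians of the cytosolic members (-0.03), translation factors (-0.03), ribosome assembly (-0.05), mTORC1 and TOP control (-0.06) and mitochondrial ribosomal proteins (-0.01) lie within 0.1 of 0, and that of the 6 ribosomal protein paralogs is 0.12.

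The annotated starts of the members were searched for the TOP motif in RefSeq promoters (GRCm38.p6), without testing any relation to the values above. The search asked for a C within 5 bases of the annotated start, followed by at least 4 bases that are each C or T, on the gene's strand. Promoters were found for 60 of 80 members, and 29 of the 60 (48.3%) held such a run, against 21.2% of 27025 genes. By window, these were 31 of 71 (43.7%), against 18.35% of all windows. A window of 30 bases, with 15 before the start, is shown for Rpl15, with a long run, and for Rps6, and capitals mark the run. A run is a match of letters near an annotated start, not a measured start.
Rpl15, chr14:18270972-18271001, minus strand: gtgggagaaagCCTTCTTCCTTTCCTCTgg
Rps6, chr4:86857353-86857382, minus strand: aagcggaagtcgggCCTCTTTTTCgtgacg

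Markers of other cells were set beside these values. Of 8 fibroblast markers, 2 rose in Dock3 KO, the collagens Col1a1 (3147 ± 1034 to 7882 ± 934 normalized counts, limma adjusted p 0.0228) and Col3a1 (3630.2 ± 556 to 6598 ± 370, limma adjusted p 0.0168; SD, n = 3 each). Beside 2 of 8, 0.443% of all genes tested were higher. At an unadjusted p under 0.05 there were 4 of the 8 (limma), against 10.5% of all genes. The groups did not overlap for 5 of the 8, in either direction, against 16.2% of all genes. The log2 difference was above 0 for 5 of the 8 markers and below 0 for 3, with a median of 0.21; Dcn, Lum and Pi16 were those below 0, and none of them passed. The 8 genes summed to between 35417 and 36549 in WT and between 42147 and 48746 in Dock3 KO. In the lists for macrophages (8 tested), lymphocytes (3 of 9), endothelium (6), satellite cells (4 of 5), adipocytes (6), erythrocytes (5) and Schwann cells (5 of 6), 0 genes passed (limma), and no marker was at 0 in every sample. Of the markers tested in these lists, 4 had an unadjusted p under 0.05 (limma), against 10.5% of all genes. These were 2 adipocyte markers, 1 satellite cell marker and 1 Schwann cell marker. Log2 differences were above 0 for 0 of 8 macrophage, 1 of 3 lymphocyte, 1 of 6 endothelial and 1 of 4 satellite cell markers. They were above 0 for 5 of 6 adipocyte, 5 of 5 erythrocyte and 2 of 5 Schwann cell markers. In the same order of lists, the medians were -0.27, -0.37, -0.10, -0.33, 0.56, 0.63 and -0.06. Fewer cells of a type and less RNA per cell cannot be told apart in whole muscle, and the part of these cells in the ribosomal protein values was not tested.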

How the data were processed

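The authors deposited 1 table of normalized counts, a signal per gene and not whole reads, for 6 ribosomal-RNA-depleted, stranded libraries. The submitters' processing notes name FastQC, Trim Galore 0.4.5, Salmon 0.12.0, DESeq2 1.22.1 and R 3.5.3 with mm10/GRCm38, without their roles. Salmon divides reads that match several transcripts between them by likelihood. How the values were scaled is not given in the sources used here. Of values under 20, only 22.9% to 35% per sample were whole multiples (within 0.02) of the most frequent low value, so whole reads were not recovered and no count model was run.

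All 54393 identifiers matched GENCODE M21. Values were converted to log2(value + 1), genes with a mean of at least 10 were kept, and genotypes were compared with limma 3.58.1 in R 4.3.3 (eBayes with an intensity trend), with Benjamini-Hochberg adjustment over all genes. The fit was also run on simulated data with independent noise per gene and large planted changes. That run does not bear on small changes, on shifts shared by a sample or on reads divided between gene and copy.

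Copies were found with blastn 2.17.0 on the longest coding transcripts (at least 95% identity, 50% of the shorter transcript and 100 aligned bases, non-overlapping), and each copy was given to its best match. Levels per kb used the shortest principal coding transcript.

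Named genes were members past the threshold, the 4 highest and 4 lowest differences, the 3 highest and lowest levels per kb, Fau, Rack1, Rpl3l and list genes past the threshold; others were named after their values were seen. A few genes that the rule names are not reported here. Members and lists were chosen with earlier results of these data known. Alternatives were other pseudocounts, filters, scalings, prior variances, covariates, copy rules and left-out samples.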

Additional observations from a re-analysis of the deposited data

How the results depend on the processing

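The number of members past the threshold was 1 in 19 of 20 alternatives and 2 in the fit without Dock3 KO replicate 2, which added Rpl30; leaving out single samples gave 1 to 2. Rpl29 passed in all 20, at log2 differences of 1.51 to 1.87 and adjusted p-values of 2.07e-06 to 0.00769 (limma). With copies, 0 members passed in all 24 alternatives, and at an unadjusted p under 0.05 there were 0 to 20 (limma). The 20 came from rescaling to the same total, all 20 lower in Dock3 KO. That scaling shifted the median of all genes by -0.27 and gave member medians of -0.30 alone and -0.33 with copies, which are -0.02 and -0.05 relative to all genes, as with the deposited values. Without Gm42418 and Lars2, an alternative added after seeing the data, the shift was -0.10 and the member medians were -0.13 and -0.16. Leaving out single samples gave medians of -0.17 to 0.05 alone and -0.18 to 0.04 with copies. Some differences near 0 changed sign: Rpl12 to 0.0196 with quantile normalization, and Rpl3l to -0.15 when rescaled to the same total. Without single samples, Rpl12 reached -0.33 to 0.16, Rplp1 -0.24 to 0.0443, Fau -0.14 to 0.0661 and Rack1 -0.14 to 0.0458. Col1a1 and Col3a1 lost their call in 8 and 9 of 20 alternatives. The cause was not tested for any of these.

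With the replicate block, 1 member passed alone (Rpl29) and 0 with copies (3 at an unadjusted p under 0.05, limma), and the member medians were 0.14 and 0.13. Rpl12 stood at 0.35, Rplp1 at 0.17, Fau at 0.15 and Rack1 at 0.084. This leaves 1 residual degree of freedom. The groups share only 2 numbers, and the deviations of same-numbered samples correlated at 0.065 and 0.0066. With so few shared numbers, these correlations cannot decide whether the samples were paired.

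With 3 muscles per group, the median half-width was 0.37 log2 units, from intervals that are not adjusted for the number of genes. Larger differences also fell short of the adjusted threshold, such as Rpl30 at 0.69 and Rpl15 at 0.68. Changes of single members can thus be missed even above 0.37. Sums with copies do not say which locus a read came from, and 19 copies cannot be told from their gene over the aligned bases.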

Other observations

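A few members have near-identical relatives that are typed as coding genes and carry no -ps symbol, so these were not summed as copies. Gm2000 matches Rpl35, a large-subunit protein, at 99.6% and had mean values of 1987 normalized counts in WT and 1935 in Dock3 KO. Rpl35 and Gm2000 together stood at 3422, 4134 and 5445 in WT against 4395, 3641 and 3520.2 in Dock3 KO, with overlapping groups and means of 4334 ± 1026 and 3852 ± 474 (SD, n = 3 each).

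Rpl27a, Rps23, Rpl28 and Rpl31 also held under 50% of the sum with their copies over the 6 samples. Their shares were 20.7%, 32.2%, 48.3% and 47.5% in WT and 18.4%, 33.0%, 47.3% and 51.4% in Dock3 KO.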
